A study of Mus musculus with 12 samples.

Results

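The genes described here were 51 genes of collagens and other extracellular matrix components, taken as a list of names. Of these, 48 had a row of their own in all 12 deposited files, 49 in the files of normal glands and untreated tumors, and 48 in the files of injected tumors, out of 23301 gene names found in all 12 files. RNA-seq was performed on 12 samples of mice on the FVB background, all 12 weeks old, in 4 groups of 3. Normal samples were mammary glands of wild type females, taken from the abdominal and inguinal positions and pooled from 3 mice per replicate. Tumor samples were untreated thoracic mammary tumors of MMTV-PyVT females, each from 1 mouse. In this model the mouse mammary tumor virus promoter drives the polyoma middle T antigen in the mammary epithelium. DMSO samples were tumors of MMTV-PyVT mice injected with the solvent, and C646 samples were tumors of MMTV-PyVT mice injected with C646, an inhibitor of the histone acetyltransferase p300. The labels give 1 mg/kg for both injections, and the biggest tumor of each mouse was taken. Normal and Tumor thus differed at once in tissue, in the position of the gland and in how many mice a replicate held, and these cannot be told apart. The PyVT transgene was carried by both DMSO and C646 mice.

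The extracellular matrix is the protein network around cells. Fibrillar collagens form the tensile fibers of the stroma, while collagen IV, laminins, nidogens and the heparan sulfate proteoglycans perlecan and agrin form the basement membrane under the epithelium and around vessels and fat cells. Fibroblasts make most of the stromal matrix of the mammary gland, and fibronectin, tenascin C, periostin and thrombospondins are known as matrix proteins of remodeling and tumor stroma.

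Values are FPKM, fragment numbers divided by transcript length and by the mapped fragments of the library, so that levels can be compared between genes. Differences were tested with limma on log2(FPKM + 0.03125), and a gene was called higher or lower when its p-value, adjusted over all genes tested, was under 0.05. All fold changes below are on that log2 scale. Read numbers per sample are not in the files. From the steps between low FPKM values, untreated tumor replicate 3 was 1.53 times as deep as tumor replicate 1, and the other injected tumors were 0.927 to 1.29 times as deep as DMSO replicate 1. The markers of luminal epithelium summed to 461.2 to 966.6 FPKM in Normal and 3051 to 4341 FPKM in Tumor. Of these, 6 of 7 were called higher in Tumor, against 28.8% of all genes tested. Adipocyte markers summed to 26050 to 32750 FPKM in Normal and 101.7 to 2480 FPKM in Tumor.

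Promoter windows of 250 bases before the start site were available for 35 of the 51 genes from RefSeq (GRCm38.p6). Those of the genes with the largest falls and rises in Tumor, and of the fibrillar collagens whose window was free of annotated exons, are printed 5′ to 3′ with 4 short motifs in capitals. The motifs were searched on both strands: the TATA box TATAAA, the CCAAT box, the GC box GGGCGG and the AP-1 motif TGACTCA. Overlapping matches were merged in the capitals.
Ogn and Efemp1 had the largest falls, Lamb3 and Agrn the largest rises, and Col3a1 and Col5a1 are fibrillar collagens.
Ogn (chr13:49607765-49608014, plus strand): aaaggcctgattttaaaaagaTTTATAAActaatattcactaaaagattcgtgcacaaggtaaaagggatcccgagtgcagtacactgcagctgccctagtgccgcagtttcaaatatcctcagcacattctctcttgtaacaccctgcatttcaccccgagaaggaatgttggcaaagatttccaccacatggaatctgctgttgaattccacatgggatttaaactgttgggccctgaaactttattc
Efemp1 (chr11:28852955-28853204, plus strand): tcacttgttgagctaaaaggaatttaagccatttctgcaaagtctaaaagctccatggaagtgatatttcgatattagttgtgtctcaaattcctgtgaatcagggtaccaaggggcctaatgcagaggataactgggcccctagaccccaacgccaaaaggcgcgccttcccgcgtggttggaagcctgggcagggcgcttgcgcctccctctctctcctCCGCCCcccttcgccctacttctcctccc
Lamb3 (chr1:193301744-193301993, plus strand): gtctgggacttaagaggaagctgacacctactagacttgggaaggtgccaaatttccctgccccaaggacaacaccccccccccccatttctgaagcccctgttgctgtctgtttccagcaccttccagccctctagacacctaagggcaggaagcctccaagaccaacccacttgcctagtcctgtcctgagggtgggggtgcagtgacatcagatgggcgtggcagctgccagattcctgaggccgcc
Agrn (chr4:156197489-156197738, minus strand): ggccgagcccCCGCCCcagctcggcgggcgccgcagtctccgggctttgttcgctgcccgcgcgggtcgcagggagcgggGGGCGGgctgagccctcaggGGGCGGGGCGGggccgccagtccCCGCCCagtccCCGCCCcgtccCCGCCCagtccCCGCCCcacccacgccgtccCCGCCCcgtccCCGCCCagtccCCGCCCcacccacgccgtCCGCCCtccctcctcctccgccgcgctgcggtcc
Col3a1 (chr1:45311288-45311537, plus strand): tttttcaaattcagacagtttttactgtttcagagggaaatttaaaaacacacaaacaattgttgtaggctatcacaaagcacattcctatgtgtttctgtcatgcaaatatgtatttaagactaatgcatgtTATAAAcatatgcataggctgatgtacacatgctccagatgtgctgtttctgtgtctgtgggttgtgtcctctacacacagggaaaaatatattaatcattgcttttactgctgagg
Col5a1 (chr2:27886175-27886424, plus strand): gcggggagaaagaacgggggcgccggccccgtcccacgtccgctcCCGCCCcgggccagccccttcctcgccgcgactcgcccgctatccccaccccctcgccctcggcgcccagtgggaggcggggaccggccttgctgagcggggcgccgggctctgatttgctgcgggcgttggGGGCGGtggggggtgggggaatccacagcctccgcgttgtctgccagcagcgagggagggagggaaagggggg

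The GC box was in the windows of 20 of the 35 matrix genes (57.1%) and in 33.0% of 27025 promoters of all genes. The TATA box was in 4 (11.4%, against 13.0% of all), the CCAAT box in 10 (28.6%, against 34.5%) and the AP-1 motif in 2 (5.71%, against 4.43%). Of the 26 windows of genes called lower in Tumor, 13 held a GC box, and of the 4 windows of genes called higher, 3 did. The Lamb3 window held none of the 4 motifs and lies inside the longer Lamb3 gene model of GENCODE, and the Agrn window held 12 GC boxes. The Ogn window lies within the span of Cenpp, and the Col5a1 window within that of 2810430I11Rik. The TATA box letters began at -229 and -227 from the start in Ogn and at -117 in Col3a1. These matches describe letters only and were not tested.

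The level of matrix mRNA was lower in Tumor than in Normal. The 48 genes with a row in all files summed to 3944 to 4431 FPKM in the normal glands, 0.634% to 0.805% of all FPKM, and to 1337 to 2282 FPKM in the tumors, 0.195% to 0.291%. All 49 genes measured were tested, and 36 of them (73.5%) were called lower and 6 (12.2%) higher, while 7 did not pass. Over all 13031 genes tested, 31.7% were called lower and 28.8% higher. The median log2 fold change was -1.49 over the matrix genes and -0.0157 over all genes. Groups did not overlap for 42 matrix genes, 36 with Tumor below Normal and 6 with Tumor above it, against 35.8% and 33.1% of all genes. Lama2 and Ogn were under 1 FPKM in every tumor, and Nid2, Efemp1 and Tnxb in 1 or 2 of the tumors, so that these 5 passed the filter on low values only through the normal samples, where they are high, and their calls are no independent evidence of a fall. Of the 44 genes that reached 1 FPKM in all samples of both groups, 31 were called lower and 6 higher. The shares over all genes by this rule were not computed, and the 31.7% and 28.8% above were not limited to such genes.

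**Figure D1:**
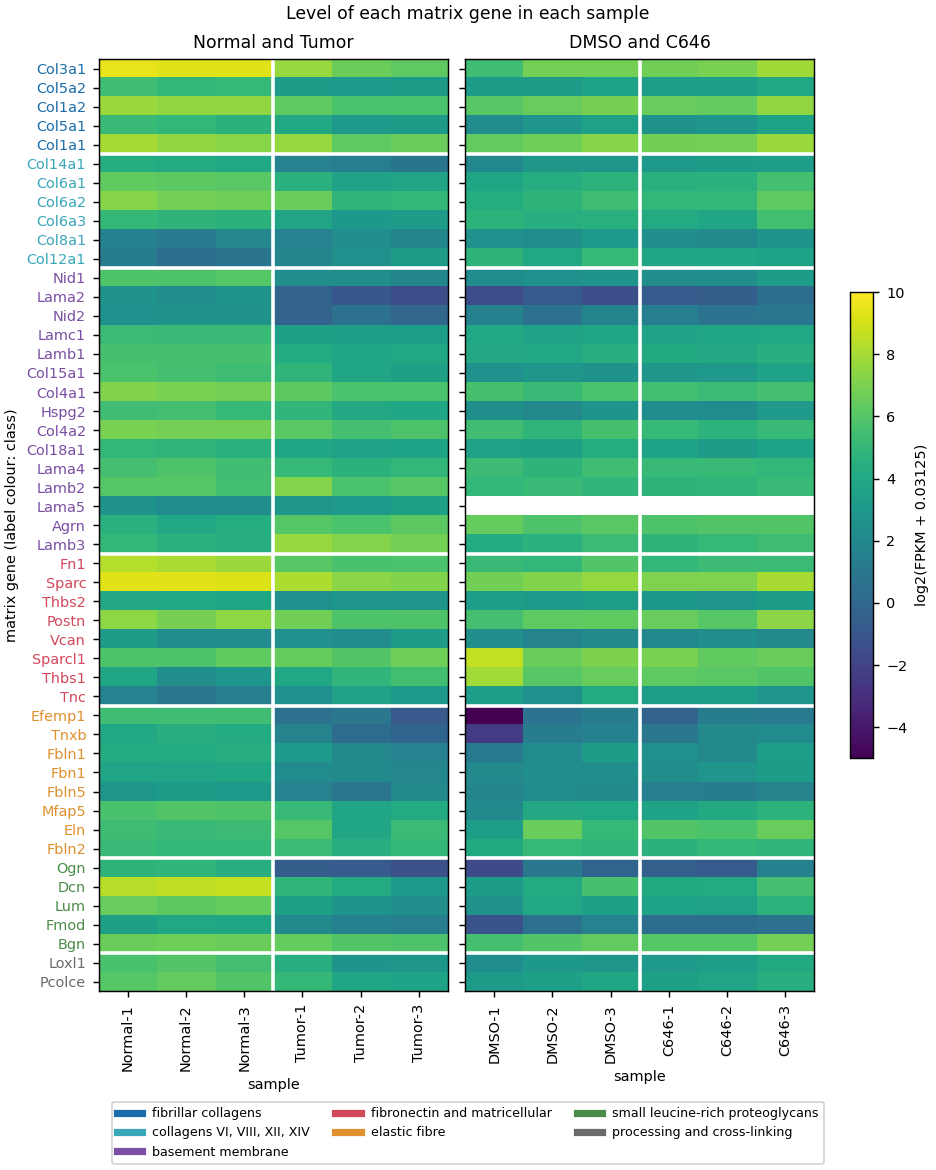
Level of each matrix gene (rows, label colour by class) in each sample (columns) as log2(FPKM + 0.03125), in separate panels because the files of the panels were made separately. Tumor columns are darker than Normal columns for most rows, and Lama5 is blank in the right panel because its row there is joined with a microRNA.

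Markers of several cell types also differed between Tumor and Normal, in both directions. All 7 fibroblast markers were called lower in Tumor, with a median log2 fold change of -2.82, and their sum was 507.9 to 681.1 FPKM in Normal and 33.38 to 84.62 FPKM in Tumor, with none at 0. The row of Pdgfra in that list is joined with a microRNA, and the 6 others had a median of -2.71. All 8 adipocyte markers and all 6 endothelial markers were called lower, and all 5 skeletal muscle markers were called higher. Of these, 5 adipocyte markers and 1 endothelial marker (Tek) passed the filter only through Normal, and 1 muscle marker (Myh4) only through Tumor. All 4 macrophage markers and 2 of 3 pericyte markers were called lower, while of 7 myoepithelial markers 4 were called lower and 2 higher. Cspg4 of the pericyte list and Myh11 and Cnn1 of the myoepithelial list passed only through Normal. Calls that rest on 1 group in this way are no independent evidence. Over all genes tested, 31.7% were called lower and 28.8% higher. The 5 lymphocyte markers reported here summed to 278.2 to 377.4 FPKM in Normal and to 0.5132 to 1.942 FPKM in Tumor, where Ms4a1 and Cd2 were listed at 0 in a library. All 5 were called lower, having passed the filter only through Normal. Skeletal muscle markers summed to 10.58 to 81.63 FPKM in Normal and 1539 to 4364 FPKM in Tumor. The part of these cell types in the matrix values was not tested, and in bulk tissue fewer cells of a type and less RNA per cell cannot be told apart.

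**Figure D2:**
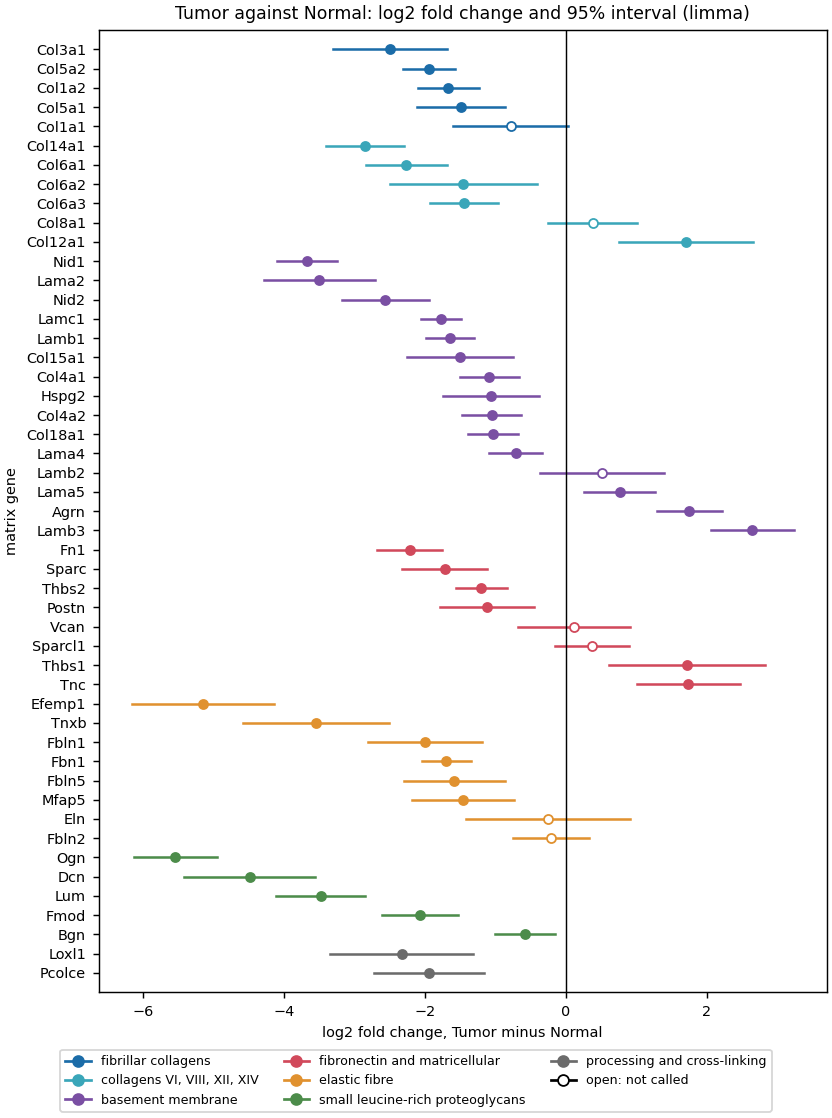
Log2 fold change of Tumor minus Normal for each of the 49 matrix genes (points) with its 95% interval from limma (lines), coloured by class, with open points for genes not called. Points run from -5.54 for Ogn to 2.65 for Lamb3, and 36 called genes lie left of 0.

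Of the 5 fibrillar collagen genes, 4 were called lower in Tumor, none higher, and the median log2 fold change was -1.67. For this class and those below, the shares over all genes tested were 31.7% lower and 28.8% higher. Col3a1, the chain of collagen III, was 727, 621 and 637 FPKM in Normal and 207, 99.8 and 77.9 FPKM in Tumor. It had the highest mean of the list in Normal, with a range that overlapped that of Sparc, and fell by 2.49 (SE 0.34, adjusted p = 0.000714, limma). Col1a2, the second chain of collagen I, was 213, 182 and 183 FPKM in Normal and 78.2, 53.5 and 52.9 FPKM in Tumor, with a log2 fold change of -1.67 (SE 0.19, adjusted p = 0.000289). All tumors lay below all normal glands for both genes.

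Col1a1, the main chain of collagen I, did not pass the test. It was 248, 185 and 164 FPKM in Normal and 197, 78.9 and 94.8 FPKM in Tumor, so tumor replicate 1 lay among the normal glands. The log2 fold change was -0.78 (95% interval -1.60 to 0.03, adjusted p = 0.0876, limma), and without tumor replicate 1 it was -1.18 and passed. Col5a2, a chain of collagen V, which sets fibril diameter, was 41.8, 31.1 and 33.2 FPKM in Normal and 9.80, 8.45 and 9.10 FPKM in Tumor (log2 fold change -1.94, SE 0.16). Its partner Col5a1 fell by 1.49. Col3a1 and Col5a2 are neighbors on chr1, 24614 bp apart in GENCODE vM21 (GRCm38), at chr1:45311538-45349706 and chr1:45374321-45503282.

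The ratios between chains differed from pair to pair. That of Col3a1 to Col1a1 was 2.93 to 3.88 in Normal and 0.822 to 1.26 in Tumor, without overlap. The ratio of Col1a1 to Col1a2, which are chains of the same protein, was 1.03 ± 0.132 in Normal and 1.93 ± 0.537 in Tumor (SD, n = 3 each), again without overlap. In the injected tumors, whose files were made separately, it was 1.13 to 1.30 in DMSO and 1.18 to 1.39 in C646, below every untreated tumor. In contrast, Col4a1 to Col4a2 was 1.00 to 1.13 in Normal and 0.944 to 1.14 in Tumor. These ratios were described and not tested.

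**Figure D3:**
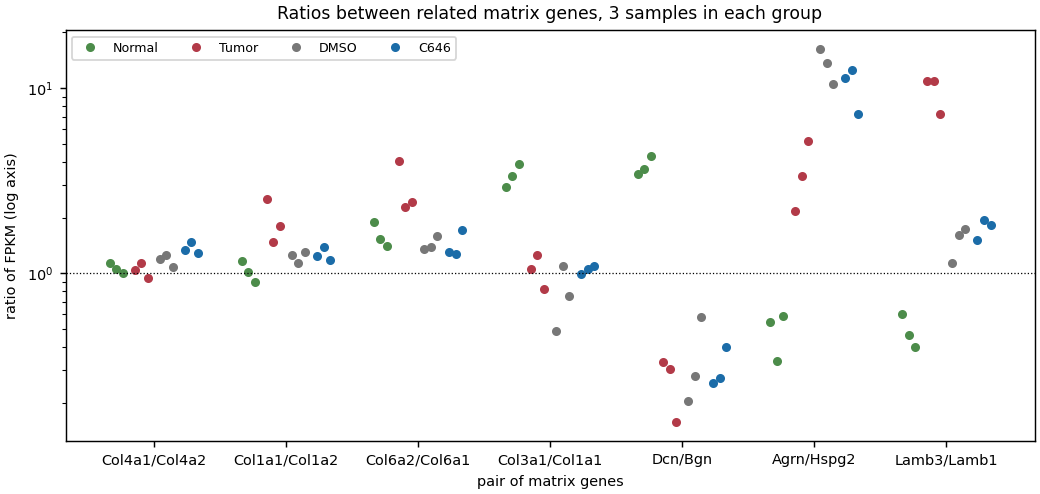
Ratios of FPKM between related matrix genes (log axis), with 1 point per sample and 3 samples in each group; the dotted line marks 1. The ratio of Col4a1 to Col4a2 stays between 0.944 and 1.48 in all samples, whereas Dcn to Bgn is 3.42 to 4.30 in Normal and 0.157 to 0.577 in the tumor groups.

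Among the collagens associated with fibrils or forming beaded and network filaments, 4 of 6 were called lower and 1 higher, with a median of -1.45. Col14a1, a collagen on the surface of fibrils, was 19.2, 18.1 and 15.7 FPKM in Normal and 3.09, 2.63 and 1.74 FPKM in Tumor (log2 fold change -2.85, SE 0.23, adjusted p = 8.18e-05, limma). Its relative Col12a1 was called in the opposite direction, at 2.41, 1.31 and 1.68 FPKM in Normal and 3.45, 5.78 and 9.68 FPKM in Tumor (1.71, SE 0.40, adjusted p = 0.00823). The levels of Col12a1 in Normal were near the filter of 1 FPKM.

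Collagen VI forms beaded filaments around cells, and all of its 3 listed chains were lower. Col6a1 was 80.5, 74.8 and 72.1 FPKM in Normal and 23.5, 12.4 and 13.4 FPKM in Tumor (log2 fold change -2.27, SE 0.24). Col6a3 was 31.2, 27.0 and 25.3 FPKM in Normal and 13.3, 8.08 and 9.70 FPKM in Tumor (-1.45, SE 0.20). Col6a2 fell by 1.45 with a wider error (SE 0.44), since tumor replicate 1 was at 94.9 FPKM and the other tumors at 28.4 and 32.3 FPKM. Its adjusted p reached 0.0781 when normal replicate 1 or 2 or tumor replicate 2 or 3 was left out, and the call was then lost. Col8a1, a short-chain collagen of vessels, was 2.33 to 3.79 FPKM in Normal and 3.10 to 5.08 FPKM in Tumor and was not called.

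Of 15 basement membrane genes tested, 11 were called lower, 3 higher and 1 was not called, with a median log2 fold change of -1.06. Lama2 and Nid2 passed the filter only through Normal, so their calls are no independent evidence. Of the 13 that reached 1 FPKM in all samples of both groups, 9 were called lower and 3 higher. The class thus held genes that moved in opposite directions. The collagen IV chains Col4a1 and Col4a2, which form the sheet of the basement membrane, were lower by a similar amount. Col4a1 was 142, 124 and 117 FPKM in Normal and 75.7, 53.1 and 53.4 FPKM in Tumor (-1.09, SE 0.18). Col4a2 was 125, 117 and 116 FPKM in Normal and 72.5, 46.5 and 56.5 FPKM in Tumor (-1.05, SE 0.18). Both are transcribed in opposite directions from starts 21 bp apart on chr8, and 22 bp of their exons overlap, so reads there cannot be assigned in a non-directional library.

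The nidogens, which bridge laminin and collagen IV, fell more than the collagen IV chains. Nid1 was 58.9, 56.7 and 65.6 FPKM in Normal and 5.39, 5.24 and 3.68 FPKM in Tumor (log2 fold change -3.67, SE 0.18, adjusted p = 1.74e-05, limma). Nid2 fell by 2.56. Col15a1 and Col18a1, the basement membrane collagens that carry restin and endostatin, fell by 1.497 and 1.03. Perlecan (Hspg2) was 32.5 to 44.9 FPKM in Normal and 14.2 to 29.7 FPKM in Tumor and fell by 1.06, but lost its call without normal replicate 1 or 2.

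Laminins are trimers of an alpha, a beta and a gamma chain. Lama2, the alpha chain of muscle, fat and nerve basement membranes, was 6.46, 5.36 and 6.88 FPKM in Normal and 0.817, 0.495 and 0.346 FPKM in Tumor (-3.50, SE 0.33, adjusted p = 0.000147, limma). Lama4, of vessel walls, fell by 0.71, and Lamb1 (-1.65) and Lamc1 (-1.77) were also lower. Lamb2 reached 150.3 FPKM in tumor replicate 1 but 54.1 and 68.4 FPKM in the other tumors, against 44.6 to 65.2 FPKM in Normal, and was not called.

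Lamb3, the beta chain of the epithelial laminin of hemidesmosomes, had the largest rise of the list. It was 30.4, 23.6 and 20.1 FPKM in Normal and 206, 151 and 114 FPKM in Tumor (log2 fold change 2.65, SE 0.25, adjusted p = 0.000135, limma). The ratio of Lamb3 to Lamb1 was 0.401 to 0.601 in Normal and 7.25 to 10.9 in Tumor. Lama5, the main epithelial alpha chain, was 4.63 to 6.19 FPKM in Normal and 7.54 to 11.7 FPKM in Tumor (0.76, SE 0.21, adjusted p = 0.017), and lost its call without normal replicate 2 or 3. Agrin (Agrn) was 23.2, 15.1 and 19.2 FPKM in Normal and 64.9, 54.3 and 73.8 FPKM in Tumor (1.76, SE 0.20, adjusted p = 0.000291). The ratio of Agrn to Hspg2 was 0.335 to 0.591 in Normal and 2.18 to 5.21 in Tumor.

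Fibronectin and the matricellular genes were the most mixed class, with 4 of 8 called lower, 2 higher and 2 not called, and a median log2 fold change of -0.50. Fn1, which assembles into fibrils on the cell surface, was 326, 274 and 216 FPKM in Normal and 69.0, 51.4 and 54.4 FPKM in Tumor (-2.21, SE 0.20, adjusted p = 0.000108, limma). Sparc, a collagen-binding glycoprotein, was 646.2, 634 and 586 FPKM in Normal and 283, 166 and 143 FPKM in Tumor (-1.72, SE 0.26). It was the most abundant gene of the list in Tumor by its mean of 197 FPKM, but its range overlapped those of Lamb3, Col3a1 and Col1a1. Periostin (Postn) was 178, 120.2 and 172 FPKM in Normal and 107, 57.7 and 57.5 FPKM in Tumor (-1.12, SE 0.28, adjusted p = 0.0111). Thbs2 (log2 fold change -1.1996) was also lower.

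The genes called higher in this class were tenascin C and thrombospondin 1. Tnc, an adhesion-modulating glycoprotein of remodeling tissue, was 3.17, 1.90 and 2.64 FPKM in Normal and 6.07, 12.4 and 8.14 FPKM in Tumor (1.74, SE 0.31, adjusted p = 0.0023, limma). Thbs1, an activator of latent TGF-beta, was 14.8, 5.28 and 7.24 FPKM in Normal and 15.8, 29.2 and 44.1 FPKM in Tumor (1.72, SE 0.47), and lost its call without normal replicate 2 or 3. Both were lowest in tumor replicate 1 among the tumors. Sparcl1, a relative of Sparc, was 58.0, 57.3 and 80.4 FPKM in Normal and 86.9, 63.5 and 105 FPKM in Tumor and was not called (0.37, 95% interval -0.16 to 0.90), nor was versican (Vcan, 0.12).

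Of the 8 elastic fiber genes, 6 were called lower and none higher, with a median of -1.64. Efemp1 and Tnxb passed the filter only through Normal, so their calls are no independent evidence. Of the 6 that reached 1 FPKM in all samples of both groups, 4 were called lower. Efemp1 (fibulin 3) was 41.7, 42.6 and 42.1 FPKM in Normal and 1.49, 1.93 and 0.531 FPKM in Tumor (-5.15, SE 0.43, adjusted p = 8.68e-05, limma), a mean 32.0 times as high in Normal. Tnxb, the tenascin of connective tissue, was 15.9, 20.0 and 18.2 FPKM in Normal and 3.20, 1.21 and 0.871 FPKM in Tumor (-3.55, SE 0.44). Fibrillin 1 (Fbn1), the backbone of microfibrils, fell by 1.69, and Fbln1 (-2.0008), Fbln5 (-1.58) and Mfap5 (-1.46) were also lower. Elastin itself (Eln) was 36.0 to 40.5 FPKM in Normal and 65.2, 13.9 and 37.3 FPKM in Tumor, a spread on both sides of the normal range, and neither it (-0.25) nor Fbln2 (-0.21) was called.

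All 5 small leucine-rich proteoglycans, which bind and space collagen fibrils, were called lower, with a median log2 fold change of -3.48. Ogn passed the filter only through Normal, so its call is no independent evidence. The 4 that reached 1 FPKM in all samples of both groups were all called lower. Ogn (osteoglycin) was 27.2, 28.8 and 21.6 FPKM in Normal and 0.648, 0.578 and 0.375 FPKM in Tumor (-5.54, SE 0.25, adjusted p = 1.36e-05, limma), the largest fall of the list. Decorin (Dcn) was 336, 378 and 418 FPKM in Normal and 28.7, 18.7 and 8.71 FPKM in Tumor (-4.49, SE 0.40), a mean 20.2 times as high in Normal. Lumican (Lum), whose gene lies 46984 bp from Dcn on chr10, fell by 3.48, and Fmod fell by 2.06. Biglycan (Bgn) fell least, by 0.58 (adjusted p = 0.0268), from 97.2 to 103 FPKM in Normal to 55.5 to 86.2 FPKM in Tumor. It lost its call when any 1 of the normal glands, tumor replicate 2 or tumor replicate 3 was left out. The ratio of Dcn to Bgn was 3.42 to 4.30 in Normal and 0.157 to 0.333 in Tumor.

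Of the genes that process and cross-link collagen, both that had rows of their own were called lower. Loxl1, a lysyl oxidase-like enzyme of elastic fibers, was 51.8, 63.4 and 45.3 FPKM in Normal and 22.4, 6.86 and 7.61 FPKM in Tumor (-2.33, SE 0.43, adjusted p = 0.00282, limma). Pcolce, an enhancer of procollagen cleavage, was 65.9, 84.5 and 61.5 FPKM in Normal and 31.4, 14.8 and 13.0 FPKM in Tumor (-1.94, SE 0.33). Loxl2 and Col7a1, the collagen of anchoring fibrils, had rows only jointly with a microRNA inside the gene. The joined row of Loxl2 was 8.33 to 10.2 FPKM in Normal and 1.56 to 1.74 FPKM in Tumor (-2.46, adjusted p = 4.61e-05), and that of Col7a1 was 7.003 to 18.6 FPKM and 15.6 to 29.2 FPKM (0.94, adjusted p = 0.0641).

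**Figure D4:**
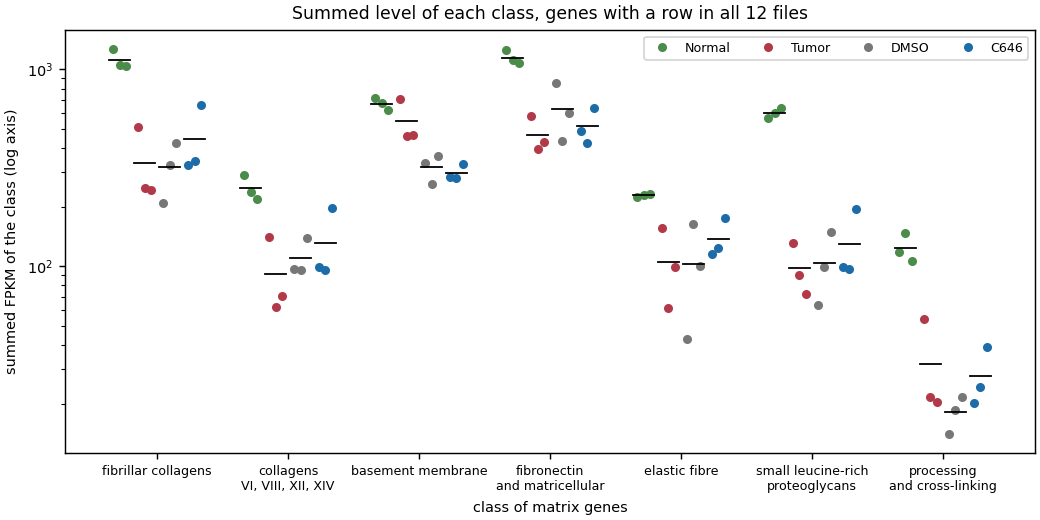
Summed FPKM of each class of matrix genes (log axis), with 1 point per sample, the mean as a black bar and 3 samples in each group, over the genes with a row in all 12 files. Normal points lie above Tumor points in every class but the basement membrane, where tumor replicate 1 (711.5 FPKM) lies within the normal range; the DMSO and C646 files were made separately from the Normal and Tumor files.

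The tumor replicates varied more than the normal replicates. The median over genes of the SD within a group was 0.18 in Normal and 0.487 in Tumor, both as differences on the log2 scale. Normal replicates were pools of mice and tumor replicates were not pooled, so these SDs do not compare variation between single mice. The part of pooling in the difference was not tested. Tumor replicate 1 was the highest tumor for 37 of 49 matrix genes, among them all 5 fibrillar collagens and all 5 leucine-rich proteoglycans. The same library had the highest sums of adipocyte markers (2480 FPKM, against 101.7 and 136.2 FPKM), of fibroblast markers (84.62 FPKM, against 50.34 and 33.38 FPKM) and of skeletal muscle markers (4364 FPKM, against 2573 and 1539 FPKM). Its sums of luminal, endothelial, macrophage and pericyte markers were also the highest of the tumors, and so was its total of all FPKM, 783719 against 685102 and 625568. As a share of that total the 48 matrix genes were 0.291% there, against 0.195% and 0.224%. Without it, 37 matrix genes were called lower and 6 higher, and the median was -1.77.

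Other genes of matrix biology were called in both directions. Of 20 tested genes of collagen synthesis and modification, 4 (20.0%) were called higher and 8 (40.0%) lower, against 28.8% and 31.7% of all genes. The general folding genes P4hb and Ppib were higher, with P4hb at 161, 143 and 147 FPKM in Normal and 543, 570 and 765 FPKM in Tumor (2.04), and so was the prolyl 3-hydroxylase P3h2 (1.92). The second procollagen enhancer Pcolce2 was at 28.4 to 40.7 FPKM in Normal and 0.465 to 1.09 FPKM in Tumor (-5.53), and the procollagen proteinases Adamts14 and Adamts2 fell by 2.36 and 2.25.

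Of 22 tested matrix receptors, 12 (54.5%) were called higher and 6 (27.3%) lower, against 28.8% and 31.7% of all genes. Itgb4, the beta chain of the hemidesmosome integrin that binds this epithelial laminin, was 11.8, 5.83 and 7.73 FPKM in Normal and 94.2, 68.5 and 206 FPKM in Tumor (3.76, SE 0.43, adjusted p = 0.000306, limma). Itgb6 (2.45) and Itga8 (2.37) were also higher. The collagen receptor Ddr2 was 8.98, 9.41 and 9.59 FPKM in Normal and 0.219, 0.250 and 0.152 FPKM in Tumor (-5.32, SE 0.26). Itga7, a laminin receptor of muscle and vessels, fell by 3.50, and the collagen receptor chain Itga11 (-2.29) was also lower.

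Of 30 other matrix genes tested, 8 (26.7%) were called higher and 17 (56.7%) lower, against the same 28.8% and 31.7% of all genes. The share called higher was thus near that of all genes. Thbs4, a thrombospondin of muscle and tendon, rose by 5.10 from 0.296 to 1.21 FPKM in Normal to 17.2 to 43.0 FPKM in Tumor. Col11a1, a minor fibrillar collagen chain, was 0.771, 0.188 and 0.347 FPKM in Normal and 6.48, 3.92 and 20.5 FPKM in Tumor (4.32, SE 0.69), and Col16a1 rose by 2.27. Spon2, Prelp and Lamc3 fell by 5.42, 5.04 and 4.05. Of the genes named from these lists, Adamts14, Ddr2, Itga11, Spon2 and Lamc3 were under 1 FPKM in every tumor. Itgb6 and Col11a1 were under it in every normal gland, and Pcolce2, Itga8 and Thbs4 in at least 1 sample of their lower group. They passed the filter only through the group where they are high, and so did some counted genes that are not named. Such calls are no independent evidence of a change. Of 17 synthesis genes that reached 1 FPKM in all samples of both groups, 4 were called higher and 5 lower. By the same rule, 10 of 16 receptors were called higher and 3 lower, and 6 of 23 other matrix genes higher and 14 lower. No shares over all genes were computed by that rule to set beside these counts.

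The second comparison asked whether C646 altered these genes in the tumors. No matrix gene was called between C646 and DMSO, of 46 tested, and limma called 0% of all 12083 genes in either direction (0 higher and 0 lower). At an unadjusted p under 0.05 there were 3 matrix genes (Col12a1, Fbln5 and Loxl1) and 384 genes in all, and the smallest adjusted p over all genes was 0.99. Lama2 and Ogn were too low to be tested. The 48 genes summed to 1402 to 1797 FPKM in DMSO and 1388 to 2237 FPKM in C646.

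Groups did not overlap for 5 of the 48 matrix genes, 3 higher and 2 lower in C646, of which Lama2 was not tested, against 4.04% higher and 4.52% lower of all genes tested. Col12a1 was 26.8, 15.9 and 33.4 FPKM in DMSO and 14.9, 13.9 and 12.9 FPKM in C646 (log2 difference -0.80, 95% interval -1.44 to -0.17). Fbln5, a fibulin needed for elastic fiber assembly, was 3.61, 4.76 and 4.13 FPKM in DMSO and 2.81, 2.502 and 3.20 FPKM in C646 (-0.55, interval -1.06 to -0.04). In both cases all C646 tumors lay below all DMSO tumors, but neither passed after adjustment (adjusted p = 0.99).

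Loxl1 was 5.03, 7.86 and 7.66 FPKM in DMSO and 8.65, 10.6 and 17.0 FPKM in C646 (0.79, interval 0.08 to 1.49). Col14a1 was 3.98, 7.55 and 7.66 FPKM in DMSO and 8.30, 9.22 and 10.1 FPKM in C646 (0.58, interval -0.08 to 1.23). Lama2, at 0.336, 0.568 and 0.344 FPKM in DMSO and 0.579, 0.636 and 1.28 FPKM in C646, was the remaining gene without overlap. The adjusted p of the tested genes was again 0.99.

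By class, all 5 fibrillar collagens had values above 0 in C646 minus DMSO, from 0.14 to 0.84, and none was called. Col3a1 was 41.8, 114 and 118 FPKM in DMSO and 109.5, 125 and 235 FPKM in C646 (0.84, 95% interval -0.26 to 1.94). Col1a1 was 85.8, 104 and 157 FPKM in DMSO and 111, 118 and 214 FPKM in C646 (0.33, interval -0.42 to 1.09), and Col1a2 was 68.8, 91.9 and 121 FPKM in DMSO and 89.5, 84.5 and 182 FPKM in C646 (0.28, interval -0.52 to 1.08). The groups overlapped for each of them, with C646 replicate 3 the highest sample. DMSO replicate 1 was the lowest DMSO tumor for 4 of the 5 fibrillar collagens. Col1a2, Col5a1 and Col5a2 fell below 0 under at least 1 alternative.

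The basement membrane genes lay on both sides of 0, with 6 of 13 above it and a median of -0.07. Col4a1 was 50.3, 34.7 and 54.7 FPKM in DMSO and 43.7, 38.0 and 44.9 FPKM in C646 (-0.12, 95% interval -0.57 to 0.33). Col4a2 was 42.1, 27.8 and 50.6 FPKM in DMSO and 32.8, 25.6 and 34.9 FPKM in C646 (-0.34, interval -0.91 to 0.23). The ratio of Col4a1 to Col4a2 was 1.08 to 1.25 in DMSO and 1.28 to 1.48 in C646. Lamb3 was 19.02, 24.1 and 37.7 FPKM in DMSO and 26.5, 32.5 and 40.6 FPKM in C646, and Agrn was 88.2, 56.5 and 70.9 FPKM and 55.1, 60.4 and 59.7 FPKM, both with overlap.

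Among fibronectin and the matricellular genes, 3 of 8 were above 0, with a median of -0.17. Fn1 was 36.5, 30.5 and 61.7 FPKM in DMSO and 30.6, 38.6 and 38.1 FPKM in C646 (-0.20). Postn was 47.7, 79.1 and 81.9 FPKM in DMSO and 92.4, 68.2 and 166 FPKM in C646 (0.59, 95% interval -0.26 to 1.44), and Tnc was 10.2, 5.71 and 18.1 FPKM in DMSO and 10.4, 10.6 and 7.21 FPKM in C646 (-0.14). Sparc was 111, 144 and 201 FPKM in DMSO and 138, 136 and 260.3 FPKM in C646 (0.20). None of these groups separated.

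Sparcl1 and Thbs1 were set by 1 library. Sparcl1 was 391, 95.1 and 132 FPKM in DMSO and 126, 81.9 and 94.0 FPKM in C646 (-0.78, 95% interval -1.96 to 0.41). Thbs1 was 245, 67.7 and 92.9 FPKM in DMSO and 78.2, 72.9 and 60.9 FPKM in C646 (-0.72, interval -1.76 to 0.33). DMSO replicate 1 was highest for both, whereas it was the lowest DMSO tumor for 28 of 48 matrix genes and Efemp1 was listed at 0 there.

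The 8 elastic fiber genes had a median of 0.65 with 7 above 0, the 4 leucine-rich proteoglycans tested were all above 0 (0.12 to 0.60), and Pcolce was at 0.44. DMSO replicate 1 was the lowest DMSO tumor for all 8 elastic fiber genes and all 5 leucine-rich proteoglycans. Some of these signs changed with the processing, with Efemp1 at -0.23 to 2.90, Fmod at -0.65 to 0.76 and Dcn at -0.29 to 0.89 over the alternatives. Dcn was 9.55, 17.6 and 49.2 FPKM in DMSO and 16.9, 17.7 and 47.0 FPKM in C646 (0.25, 95% interval -1.28 to 1.78), an interval that spans large differences in both directions. Col6a3 was 26.2, 20.9 and 22.7 FPKM in DMSO and 17.8, 14.8 and 44.3 FPKM in C646 (-0.03). Over all 46 genes, 30 (65.2%) were above 0, against 46.9% of all genes tested. That count fell to 23 without C646 replicate 3 and to 25 without DMSO replicate 1, and the median of 0.17 became -0.02 and 0.05. C646 replicate 3 was the highest C646 tumor for 37 of 48 matrix genes, and DMSO replicate 3 was the highest DMSO tumor for 31.

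Fibroblast markers summed to 22.05 to 45.39 FPKM in DMSO and 35.69 to 74.28 FPKM in C646, with the highest sum in C646 replicate 3. Skeletal muscle markers summed to 308.6 to 337.5 FPKM in DMSO replicate 3 and C646 replicates 1 and 3 and to at most 1.97 FPKM in the others. Adipocyte markers summed to 11.71 to 71.51 FPKM in DMSO, where Adipoq, Plin1, Lep, Cidec and Retn were listed at 0 in a library, and to 92.53 to 601.7 FPKM in C646. Of 6 adipocyte markers tested, 5 were higher in every C646 tumor than in every DMSO tumor, against 4.04% of all genes, and none was called. Adipoq, Plin1, Cidec and Retn passed the filter only through C646, where they are high, so their separation is no independent evidence. Of the other matrix lists, none of 18 synthesis genes, 19 receptors and 29 other matrix genes tested was called. The part of fat and fibroblasts in the matrix values was not tested.

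The comparisons share no samples, so their values for the same genes can be set side by side. Of 34 genes called lower in Tumor and tested in C646, 25 were above 0 in C646 minus DMSO (median 0.23), and of 5 called higher in Tumor, 4 were below 0 (median -0.28). Over all genes tested, 46.9% were above 0 in C646 minus DMSO. Among the 34, Efemp1, Tnxb and Nid2 passed the filter in Tumor and Normal only through Normal, so their calls are no independent evidence. The relation between the comparisons was not computed over all genes. Across the 46 genes, which share their libraries and are not independent, Pearson's r was -0.566 and Spearman's rho was -0.502. Pearson's r was -0.193 without DMSO replicate 1 and -0.466 without C646 replicate 3, and the count of 25 became 21 and 17. No gene was called in C646, and these numbers are a description.

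**Figure D5:**
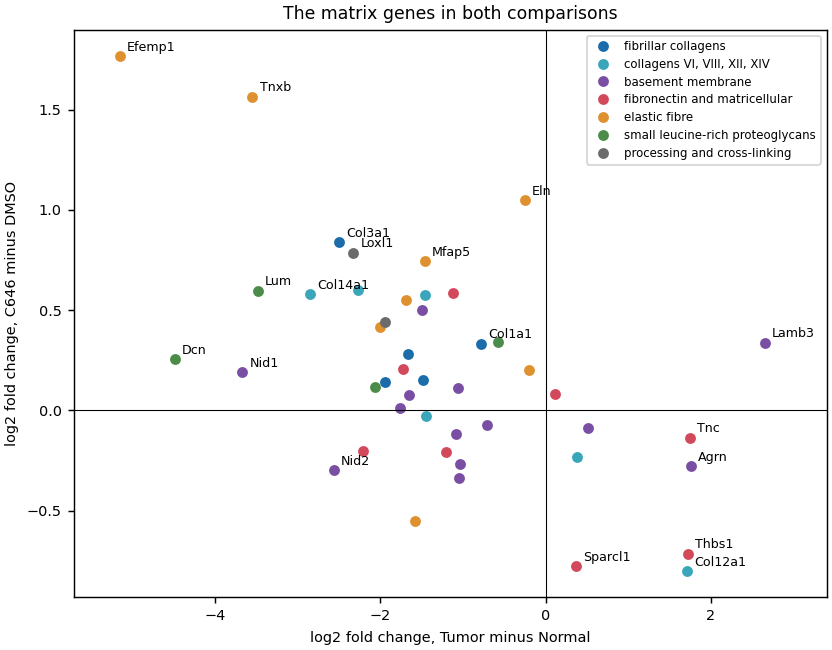
Log2 fold change of Tumor minus Normal (horizontal) and of C646 minus DMSO (vertical) for the 46 matrix genes tested in both comparisons, 1 point per gene, coloured by class. Col12a1 and Thbs1 lie at lower right and Efemp1, Tnxb and Col3a1 at upper left, and no gene was called on the vertical axis.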

How the data were processed

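RNA-seq of 12 mouse samples was analysed in 4 groups of 3, as the labels give them. The authors made non-directional poly(A) libraries, trimmed the reads, mapped them to mm10 with TopHat2 2.1.1 and computed FPKM per gene with Cufflinks 2.2.1 (versions from the submitters' processing notes), and the deposited files hold gene names and FPKM. Files of Normal and Tumor had 26220 rows, 1837 of them without a name, and those of DMSO and C646 had 24304 rows; each comparison was fitted within its own files. Unnamed rows were left out, and repeated names were added up. Rows that join a gene with another name were left out of the counts of matrix genes and pathway lists, but kept for the markers Pdgfra and, in DMSO and C646, Krt14. limma 3.58.1 in R 4.3.3 (lmFit, eBayes with trend) was run on log2(FPKM + 0.03125) keeping genes that reached 1 FPKM in 3 or more of the 6 samples, with Benjamini-Hochberg adjustment over all genes tested and a threshold of 0.05. The pseudocount understates changes of genes with low values. Replicates were separate tumors or separate pools of mice. The script was tested on simulated data. The matrix genes, their classes, the marker and pathway lists were chosen with earlier results of these data known. One gene of the lymphocyte list is not reported here. All 51 genes could be named; values in every sample are given for the 2 called genes of each class with the largest change, for 12 genes that the rule lists and for genes that a result turns on, among them Lamb3, Agrn, Col12a1, Thbs1 and Itgb4, added after their values were seen. From each pathway list the 3 called genes with the largest change in each direction are named. Alternatives were another pseudocount, no filter, 2 rescalings, a replicate block, each replicate left out in turn and, added after seeing the data, the joined rows. Positions are from GENCODE vM21 (GRCm38, the same build as mm10). Other computations used Python 3.11.15, numpy 2.4.6, pandas 2.3.3 and matplotlib 3.10.9.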

Additional observations from a re-analysis of the deposited data

How the results depend on the processing

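Between Tumor and Normal, 36 to 37 matrix genes were called lower and 6 to 7 higher with a pseudocount of 1, no filter, median-ratio scaling, quantile normalization, the replicate block or the joined rows, and 31 to 37 lower and 4 to 6 higher with 1 replicate left out. No called gene changed direction under any of these. Over all genes, 2570 to 4172 were lower with 1 replicate left out, against 4128; the low counts were those without normal replicate 3 (2570) and normal replicate 2 (2686), when fewer genes passed the filter and Lama2 and Ogn were not tested. Quantile normalization shifted the median of all genes to 0.101 and added Col1a1 and Col8a1 to the calls. Between C646 and DMSO no matrix gene was called under any alternative, and over all genes only leaving out DMSO replicate 2 gave calls, 12 lower; with 1 replicate left out the range was 0 to 12. Genes not called changed sign in up to 11 of 46 cases (without C646 replicate 3). Same-numbered samples correlated at -0.0982 to 0.0104 in their deviations for Tumor and Normal and at 0.0699 to 0.175 for C646 and DMSO. Differently numbered samples correlated at -0.0625 to 0.0929 for Tumor and Normal and at -0.234 to 0.141 for C646 and DMSO. The numbers were not taken as pairs in the main fit, and these values do not decide whether they are. The replicate block gave 3439 higher and 3827 lower genes and added Col1a1 in Tumor, and 0 calls in C646 (smallest adjusted p = 0.0597, limma). With the block 11 matrix genes had an unadjusted p under 0.05 in C646, against 3 in the main fit. Sequencing depth is not in the files, and 3 samples per group limit the precision.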

Other observations

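Several matrix genes had different levels in the untreated tumors and in the injected tumors, whose files were made separately with different rows, so that no test was made. Lamb3 was 114 to 206 FPKM in untreated tumors and 19.02 to 40.6 FPKM in the DMSO and C646 tumors, beside 20.1 to 30.4 FPKM in the normal glands. Perlecan (Hspg2) was 14.2 to 29.7 FPKM in untreated tumors and 4.13 to 8.24 FPKM in injected tumors. Col12a1 was 3.45 to 9.68 FPKM in untreated tumors and 12.9 to 33.4 FPKM in injected tumors, and Thbs1 was 15.8 to 44.1 FPKM and 60.9 to 245 FPKM. For these 4 genes the ranges of untreated and injected tumors did not overlap. They are examples, and other matrix genes did not overlap either. Among those, Lamb2 was 54.1 to 150 FPKM in untreated and 27.2 to 34.4 FPKM in injected tumors. Col14a1 was 1.74 to 3.09 FPKM in untreated and 3.98 to 10.1 FPKM in injected tumors. Such genes were not counted. The animals, the injection and the making of the files differed together and cannot be told apart.

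In the injected tumors Lama5 was listed jointly with a microRNA inside the gene. That row was 19.5 to 26.9 FPKM in DMSO and 20.3 to 30.6 FPKM in C646. The joined row of Loxl2 was 1.28 to 3.31 FPKM in DMSO and 1.75 to 2.86 FPKM in C646, and that of Col7a1 was 2.07 to 8.90 FPKM and 3.25 to 8.61 FPKM. None of the 3 was called. For some genes exons of another gene on the opposite strand overlap and a non-directional library cannot separate the reads: 20.3% of the exon bases of Fbn1 overlap Gm9913 and 8.96% of those of Nid2 overlap Rtraf.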
